A study of Mus musculus with 6 samples.

Results

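Transcripts of 10 genes of cytotoxic lymphocytes were followed in colonic mucosa of Tlr2-/- and wild-type (WT) mice: the granule genes Gzma, Gzmb, Prf1 and Nkg7, the lectin-like receptor gene Klrd1, the T cell receptor complex genes Cd3d, Cd3e and Cd3g, the coreceptor gene Cd8a and the integrin gene Itgae. The genes were taken by name for their roles, with earlier results of these data known, so the counts over them below are descriptions. All 10 had a probe on the array, and 9 of them were among the 14707 genes measured above background. The mucosa came from C57BL/6 mice with a knockout of Tlr2 and from WT C57BL/6 mice, both at postnatal day 90 and with no treatment named. It was scraped from the colon as bulk tissue. RNA was hybridised to 4 two-colour expression arrays, each holding 1 Tlr2-/- and 1 WT sample, which gave the pairs 1, 2, 4 and 5, named by the number of the Tlr2-/- sample. The Tlr2-/- sample carried Cy3 in pairs 1 and 2 and Cy5 in pairs 4 and 5. The sources used here do not say whether the mice were littermates or shared cages, nor that each sample code is a separate animal, so the spread and p-values describe these samples and may be partly technical.

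Cytotoxic lymphocytes, which include CD8 T cells and natural killer (NK) cells, kill target cells by releasing granules. The granules carry perforin, which opens the target membrane, and granzymes, proteases that enter the target and cleave its proteins. In the gut, many such cells are intraepithelial lymphocytes, held among the epithelial cells by the integrin CD103, the product of Itgae, which binds E-cadherin. Tlr2 encodes a surface receptor for bacterial lipoproteins.

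The Tlr2 probe gave log2 ratios of Tlr2-/- over WT of -4.42, -5.31, -5.50 and -4.20 in pairs 1, 2, 4 and 5, a mean of -4.86 ± 0.643 (SD, n = 4). Its ratio was strongly negative on every array, as the labels state, yet in limma across all genes even Tlr2 had an adjusted p of 0.315. Between 67.7% and 71.9% of the spots were well above background in the Tlr2-/- channel and between 63.3% and 76.5% in the WT channel. The share followed the dye on every array, at 71.0% to 76.5% in the Cy5 channels and 63.3% to 68.8% in the Cy3 channels. Pair 1 stood apart. Across 14696 genes its ratios correlated negatively with those of pair 2 (r = -0.21), pair 4 (r = -0.42) and pair 5 (r = -0.10), while pairs 2, 4 and 5 correlated with each other at r of 0.42 to 0.57. These correlations run over genes, which are not independent replicates. Tlr2 was low in the Tlr2-/- sample of pair 1 as in the others, and mean ratios and counts are given below with and without this pair.

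Promoters of 8 of the 10 genes were found in RefSeq, as 250 bases before and 50 bases after the gene start (build GRCm38.p6). They are shown for 4 genes because 2 of them, Gzma and Gzmb, had lower transcript levels in the Tlr2-/- sample of every pair, while Nkg7 and Cd3d did not. Each is written 5′ to 3′ on the strand of the gene. Capitals mark TGTGGT, a core bound by RUNX factors, read on either strand. Capitals also mark TCACAC, letters found in sites of T-box factors, again on either strand.
Gzma, chr13:113100932-113101231, minus strand: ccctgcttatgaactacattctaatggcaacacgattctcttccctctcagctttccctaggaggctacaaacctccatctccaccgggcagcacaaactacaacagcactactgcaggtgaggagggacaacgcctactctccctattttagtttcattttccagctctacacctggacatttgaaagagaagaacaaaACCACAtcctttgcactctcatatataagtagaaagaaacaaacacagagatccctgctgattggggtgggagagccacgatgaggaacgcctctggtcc
Gzmb, chr14:56262285-56262584, minus strand: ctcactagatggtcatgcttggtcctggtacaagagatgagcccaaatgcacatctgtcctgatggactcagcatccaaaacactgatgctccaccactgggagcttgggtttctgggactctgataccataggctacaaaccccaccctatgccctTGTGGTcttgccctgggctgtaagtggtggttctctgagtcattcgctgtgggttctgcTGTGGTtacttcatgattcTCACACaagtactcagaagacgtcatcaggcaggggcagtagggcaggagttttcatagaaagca
Nkg7, chr7:43436888-43437187, plus strand: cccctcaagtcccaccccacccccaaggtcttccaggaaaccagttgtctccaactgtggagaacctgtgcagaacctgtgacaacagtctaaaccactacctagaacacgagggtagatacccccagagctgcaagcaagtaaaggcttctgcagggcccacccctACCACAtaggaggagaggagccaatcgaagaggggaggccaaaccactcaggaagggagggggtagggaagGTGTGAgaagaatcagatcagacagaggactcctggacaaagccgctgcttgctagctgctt
Cd3d, chr9:44981536-44981835, plus strand: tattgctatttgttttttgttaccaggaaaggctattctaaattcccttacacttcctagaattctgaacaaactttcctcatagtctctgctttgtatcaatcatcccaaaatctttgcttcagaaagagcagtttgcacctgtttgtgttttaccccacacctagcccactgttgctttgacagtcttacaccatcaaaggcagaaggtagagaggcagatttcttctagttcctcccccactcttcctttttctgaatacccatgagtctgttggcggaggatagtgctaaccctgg
The RUNX letters were present in the promoters of 4 of the 8 genes, namely Gzma, Gzmb, Prf1 and Nkg7, and in 16.8% of 32851 mouse promoters of the same length. The T-box letters were present in 2 of the 8, Gzmb and Nkg7, and in 14.5% of the mouse promoters. Gzmb and Nkg7 held both, as did 2.92% of the promoters. In Gzmb the RUNX letters began 93 and 34 bases before the start and the T-box letters 15 bases before it, without overlap. In Gzma the RUNX letters began 50 bases before the start. The promoters of Cd3d, Cd3e, Cd3g and Cd8a held neither string in this window. These matches are letters in a window and no measurement of binding.

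Gzma, which encodes the tryptase granzyme A, had the largest difference of the 9 measured genes. Its normalised log2 intensity was 6.77, 6.58, 6.42 and 7.43 in the Tlr2-/- samples of pairs 1, 2, 4 and 5, against 8.01, 8.12, 8.91 and 8.002 in the WT samples. Every Tlr2-/- sample lay below every WT sample, and the Tlr2-/- sample of pair 5 came nearest to WT. The means were 6.80 ± 0.445 in Tlr2-/- and 8.26 ± 0.436 in WT (SD, n = 4 each). The log2 ratios were -1.24, -1.54, -2.49 and -0.57, a mean of -1.46 ± 0.797 (SD, n = 4), or 2.76-fold lower in Tlr2-/- mucosa. In limma with a dye term the 95% confidence interval ran from -2.43 to -0.50, with an unadjusted p of 0.0135 and a Benjamini-Hochberg adjusted p of 0.594 over all genes. Its mean ratio was rank 21 among the 14707 genes, counted from the most negative.

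The size of the Gzma difference depended on how the signal was prepared. The mean log2 ratio was -1.53 with no background correction and -2.04 with a normexp offset of 10 in place of 50, an offset chosen after seeing the data. With the scanner's own background-subtracted intensities, the Gzma probe read 78.8, 79.4, 56.5 and 258 in the Tlr2-/- samples of pairs 1, 2, 4 and 5, against 598, 937, 1910 and 825 in the WT samples. On that scale, which differs in dye scaling as well as in background, the mean log2 ratio was -3.30 ± 1.41 (SD, n = 4), or 9.83-fold lower in Tlr2-/- mucosa. The direction was the same in every pair here and with normexp. The authors' deposited table lists Gzma among 277 decreased transcripts with an average linear ratio of 0.143. This average was made by the authors from expression arrays of the same series, so it is no separate measurement. It averages linear ratios, whereas the folds above come from mean log2 ratios.

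Gzmb encodes granzyme B, a protease that cleaves caspases and other substrates after aspartate. Its log2 intensity was 7.51, 6.94, 6.90 and 7.78 in the Tlr2-/- samples of pairs 1, 2, 4 and 5, against 8.30, 8.06, 8.62 and 8.01 in the WT samples. As for Gzma, the groups did not overlap, and pair 5 showed the smallest gap and pair 4 the largest. The log2 ratios were -0.79, -1.12, -1.71 and -0.23, a mean of -0.96 ± 0.618 (SD, n = 4), or 1.95-fold lower in Tlr2-/- mucosa. The 95% confidence interval in limma was -1.73 to -0.20, the unadjusted p 0.0249 and the adjusted p 0.594. With the scanner's processed intensities the mean was -1.51 ± 0.966 (SD, n = 4), 2.85-fold lower in Tlr2-/- mucosa. Gzmb is also in the authors' deposited table of decreased transcripts, with an average linear ratio of 0.410. The other 8 genes are in none of the deposited expression tables.

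The 2 granzymes ranked in the same order over the pairs. Both had their most negative ratio in pair 4, then pair 2, then pair 1, and the least negative in pair 5. Gzma minus Gzmb, taken within each array, was -0.45, -0.42, -0.78 and -0.34 on the log2 scale in pairs 1, 2, 4 and 5, a mean of -0.50 ± 0.194 (SD, n = 4). The granzymes differed by a similar amount whichever dye the Tlr2-/- sample carried. Gzma averaged -1.39 over the pairs with Tlr2-/- in Cy3 and -1.53 over those with Tlr2-/- in Cy5, and Gzmb -0.96 and -0.97. The means of the other genes lay further apart, except those of Cd3e. Over the pairs with Tlr2-/- in Cy3 and then those with Tlr2-/- in Cy5, Nkg7 averaged 0.07 and -0.87, Klrd1 0.02 and -0.93, Cd3d 0.10 and -1.04, Cd3g -0.07 and -0.39, Cd8a -0.05 and -0.63, Itgae 0.21 and -0.58, and Cd3e -0.12 and -0.04. Each is a mean of 2 pairs, and the Cy3 means hold pair 1.

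Prf1, the perforin gene, could not be compared. Its 1 probe was well above background in 0 of 4 Tlr2-/- samples and 1 of 4 WT samples, so it was not tested and no fold is given. Nkg7 encodes a membrane protein of cytotoxic granules needed for their release. Its brighter probe read log2 intensities of 8.75, 7.76, 7.59 and 7.95 in the Tlr2-/- samples of pairs 1, 2, 4 and 5, against 8.04, 8.33, 8.90 and 8.39 in WT. The Tlr2-/- sample of pair 1 was above its WT partner and the other three were below theirs, so the groups overlapped. The ratios were 0.71, -0.58, -1.31 and -0.44 (mean -0.40 ± 0.835, SD, n = 4, adjusted p = 0.742 in limma). A second Nkg7 probe had the same signs, with 0.12, -0.42, -0.79 and -0.20.

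**Figure D1:**
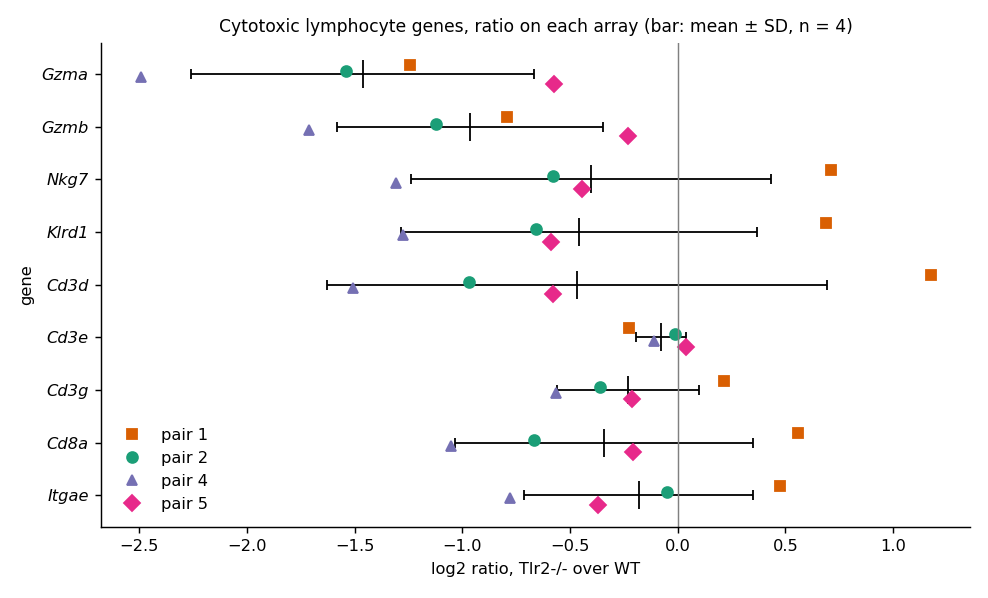
Log2 ratio of Tlr2-/- over WT (x axis) for the 9 measured genes (rows) on each of the 4 arrays, with the mean as a tick and the SD as a bar (n = 4). All 4 points of Gzma and of Gzmb lie left of 0, whereas the square of pair 1 lies right of 0 for Nkg7, Klrd1, Cd3d, Cd3g, Cd8a and Itgae (left of it for Klrd1, Cd3g and Itgae with median centring in place of loess).

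Klrd1 encodes CD94, the shared subunit of the CD94/NKG2 receptors of NK cells and some T cells. Its log2 intensity was 8.91, 7.61, 7.65 and 7.98 in the Tlr2-/- samples of pairs 1, 2, 4 and 5, against 8.22, 8.27, 8.93 and 8.57 in WT. The ratio was 0.69 in pair 1 and -0.66, -1.28 and -0.59 in pairs 2, 4 and 5. The mean of -0.46 ± 0.825 (SD, n = 4) had a confidence interval of -1.22 to 0.31 and an adjusted p of 0.699 in limma. Klrd1 had the signs of Nkg7, but the sign in pair 1 turned with the normalisation. With arrays centred on the median in place of loess, the pair 1 ratio was -0.02 for Klrd1 and 0.04 for Nkg7, both near 0.

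Cd3d, Cd3e and Cd3g encode the signalling chains delta, epsilon and gamma of the T cell receptor complex. Cd3d spread the most of the 9 genes. Its log2 intensity was 8.71, 7.39, 7.24 and 7.71 in the Tlr2-/- samples of pairs 1, 2, 4 and 5, against 7.53, 8.36, 8.75 and 8.28 in WT. The Tlr2-/- sample of pair 1 lay above 3 of the WT samples, and its WT partner was the lowest of the WT group. The ratios of 1.18, -0.97, -1.51 and -0.58 gave a mean of -0.47 ± 1.16 (SD, n = 4) and an adjusted p of 0.799. Cd3g showed the same signs with smaller values, 0.21, -0.36, -0.57 and -0.21, and a mean of -0.23 ± 0.330 (SD, n = 4). Cd3e differed little in any pair, with -0.22, -0.01, -0.11 and 0.04 and a mean of -0.08 ± 0.116 (SD, n = 4). The limma interval of Cd3e, -0.34 to 0.18, was the narrowest of the 9 genes.

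Cd8a encodes the alpha chain of the CD8 coreceptor, which binds class I major histocompatibility molecules. Its brightest probe had log2 intensities of 7.93, 7.18, 7.09 and 7.53 in the Tlr2-/- samples of pairs 1, 2, 4 and 5, against 7.37, 7.85, 8.15 and 7.74 in WT. The ratio was 0.56 in pair 1 and -0.67, -1.05 and -0.21 in pairs 2, 4 and 5, with a mean of -0.34 ± 0.694 (SD, n = 4, adjusted p = 0.775 in limma). The 3 Cd8a probes did not agree in pair 1. A probe spotted 10 times gave 0.26 there, and the dimmest gave -0.21, with the Tlr2-/- channel above background on 3 of 4 arrays. Itgae had log2 intensities of 8.54, 7.87, 7.62 and 7.84 in the Tlr2-/- samples and 8.07, 7.92, 8.40 and 8.22 in WT. Its ratios were 0.48, -0.05, -0.78 and -0.37, a mean of -0.18 ± 0.531 (SD, n = 4, adjusted p = 0.772 in limma), and this mean was 0.02 without pair 4.

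**Figure D2:**
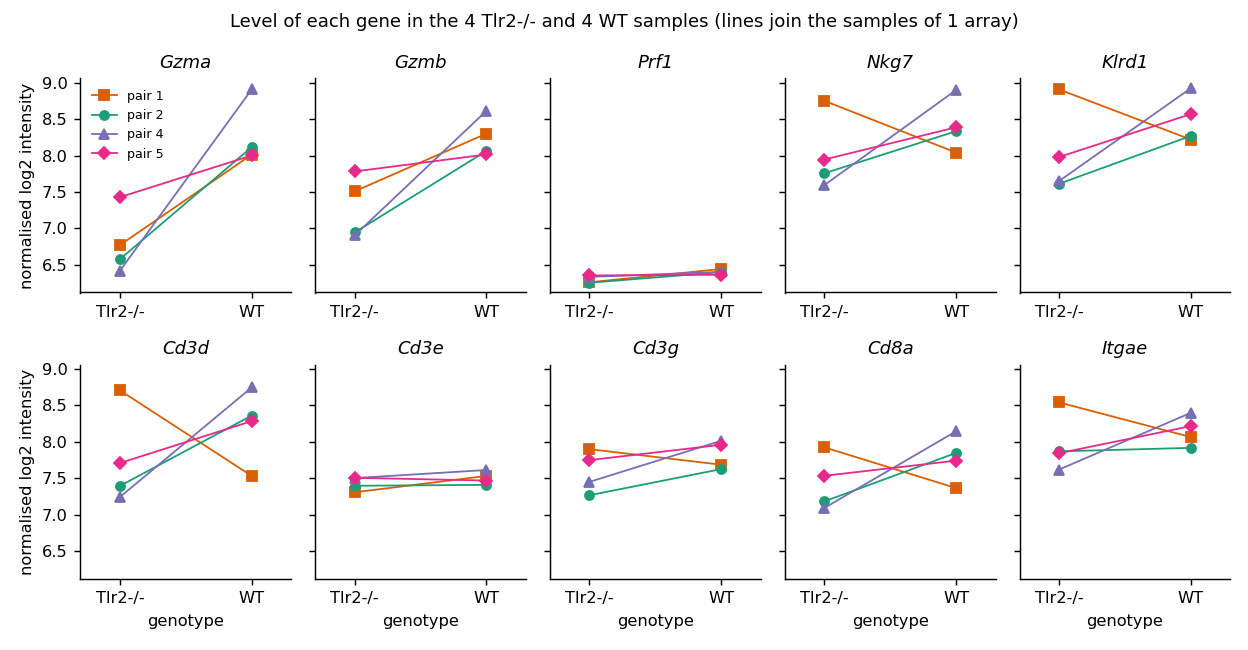
Normalised log2 intensity (y axis) of each of the 10 genes in Tlr2-/- (left) and WT (right) samples, with a line joining the samples of 1 array. For Gzma and Gzmb all 4 lines run the same way and the groups do not overlap, for 6 other genes the line of pair 1 slopes the other way after loess (for 3 of them with median centring), and Prf1 lies at the floor of the scale.

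Counts over the 9 measured genes were read against all 14707. At an adjusted p under 0.05, limma called 0 genes in either direction (0%), and 0 of the 9. At an unadjusted p under 0.05, 4.26% of all genes were lower in Tlr2-/- mucosa, and 2 of the 9 were, Gzma and Gzmb. The submitters' rule asks for a change over 1.6-fold on at least 2 arrays with no array going the other way. It was met downwards by 0.714% of all genes and by the same 2 of the 9. A negative ratio on all 4 arrays was found for 8.41% of all genes and for these 2, and all Tlr2-/- samples lay below all WT samples for 2.44% of genes and again for these 2. The other 7 genes met none of these counts. Of the 9, 6 were higher in Tlr2-/- in pair 1 and lower in pairs 2, 4 and 5 (Nkg7, Klrd1, Cd3d, Cd3g, Cd8a and Itgae), a sign pattern found in 16.1% of all genes and picked out after the values were seen. It held for Nkg7, Cd3d and Cd8a but not for Klrd1, Cd3g and Itgae with median centring in place of loess.

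These counts moved with pair 1 and with the normalisation. Without pair 1, the means of Gzma and Gzmb were -1.54 and -1.02, close to those with it. The means of the other genes without pair 1 were -1.02 for Cd3d, -0.84 for Klrd1, -0.78 for Nkg7 and -0.64 for Cd8a. Those of Itgae, Cd3g and Cd3e were -0.40, -0.38 and -0.03. Cd3d was thus level with Gzmb when pair 1 was left out. On the 3 remaining arrays 8 of the 9 genes, all but Cd3e, were negative throughout, as were 3602 of the 14707 genes, and Cd3d also met the submitters' rule, as did 496 genes in all. The median of the 9 mean ratios was -0.40, against -0.01 for all genes, and it was -0.78 without pair 1 and -0.12 without pair 4. Pair by pair, the median of the 9 genes was 0.48, -0.66, -1.28 and -0.37 in pairs 1, 2, 4 and 5, while the median of all genes lay between -0.03 and 0.01. With arrays centred on the median in place of loess, 5 of the 9 genes were negative on all 4 arrays (Gzma, Gzmb, Klrd1, Cd3g and Itgae), as were 997 of the 14707 genes, and Klrd1 also met the submitters' rule, as did 293 genes. The pair 1 ratio was then 0.59 for Cd3d and 0.15 for Cd8a, and -0.26 for Cd3g and -0.17 for Itgae, the last 2 with the sign turned from loess. In bulk mucosa, fewer cells of a type and less RNA per cell cannot be told apart.

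**Figure D3:**
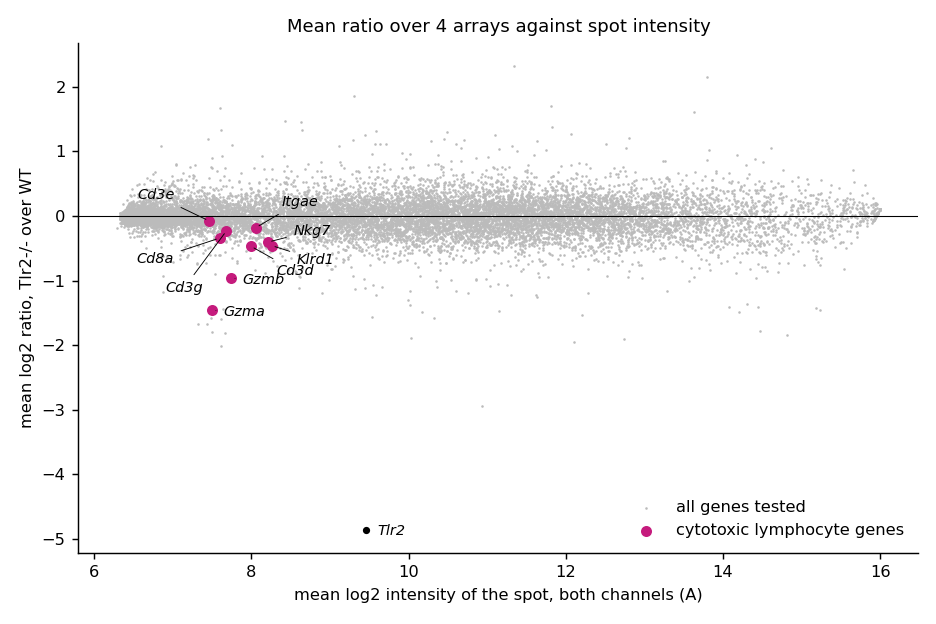
Mean log2 ratio of Tlr2-/- over WT over 4 arrays (y axis) against mean log2 intensity of both channels (x axis) for all 14707 genes (grey), the 9 cytotoxic lymphocyte genes (coloured) and Tlr2 (black). The 9 genes sit at the dim end of the array, and Gzma at -1.46 and Gzmb at -0.96 lie below the grey cloud's bulk, with the other 7 between -0.47 and -0.08.

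The difference between each granzyme and other genes of the set was measured within each array, where both genes come from the same RNA. The log2 ratio of Gzma minus that of Klrd1 was -1.93, -0.88, -1.22 and 0.02 in pairs 1, 2, 4 and 5, a mean of -1.004 ± 0.809 (SD, n = 4). Gzma minus Cd3d was -2.42, -0.57, -0.99 and 0.00, and Gzma minus Nkg7 was -1.95, -0.96, -1.19 and -0.13. Gzma was thus more negative than these genes in pairs 1, 2 and 4, by the most in pair 1, and about level with Klrd1 and Cd3d in pair 5. Gzmb minus Klrd1 was -1.48, -0.46, -0.44 and 0.36 (mean -0.51 ± 0.754, SD, n = 4), with the sign turned in pair 5. These differences were not tested, since an exact sign-flip test over 4 pairs cannot give a two-sided p below 0.125.

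Other genes of the pathway were counted from lists of related genes. Of 21 other granule genes, 14 were measured, and 0 met the submitters' rule in either direction. Serglycin (Srgn), the proteoglycan core of the granule, had ratios of 0.59, -1.24, -1.04 and -0.38, and cathepsin C (Ctsc), which activates granzyme precursors, 0.25, -0.27, -0.42 and -0.65. Rab27a, a GTPase of granule release, ran the other way with -0.92, 0.94, 1.24 and 0.80, and Cst7, a cystatin that inhibits cathepsins, averaged -0.22. None of these 4 passed the adjusted threshold. The granzyme genes Gzmd, Gzme, Gzmf, Gzmg, Gzmk and Gzmn were not well above background and were not tested. Gzmc and Gzmm, the other measured granzyme genes, showed little difference, with mean log2 ratios of 0.03 ± 0.154 and -0.01 ± 0.144 (SD, n = 4 each, adjusted p 0.956 and 0.997 in limma), and they are named here outside the rule with their values in view.

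Of 23 other NK receptor and adaptor genes, 10 were measured and 0 met the rule. The adaptor gene Hcst, which encodes DAP10, averaged -0.38 ± 0.376, Klrb1c, which encodes NK1.1, 0.33 ± 0.523, the Ly49 receptor gene Klra7 0.08 ± 0.224 and the signalling adaptor gene Fcer1g -0.16 ± 0.604 (mean log2 ratio, SD, n = 4 each). Klrc1 and Klrk1, which encode the partner NKG2A and the receptor NKG2D, and the NK receptor gene Ncr1 were not well above background. Of 24 other T cell receptor and signalling genes, 20 were measured, 0 met the rule and 8 had the sign pattern of pair 1 against the rest. That pattern, found in 16.1% of all genes, was picked out after the values were seen. It was not recounted for the lists with median centring. Cd7, a surface protein of T and NK cells, had 0.85, -0.82, -1.80 and -0.66, and Cd52, a glycoprotein of mature lymphocytes, 1.31, -1.67, -1.10 and -0.64. Both therefore followed Cd3d in sign. The adaptor genes Sh2d2a and Trat1 averaged -0.22 ± 0.202 and 0.23 ± 0.269 (mean log2 ratio, SD, n = 4 each).

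Of 22 homing and residency genes, 19 were measured and 1 met the rule downwards, Ccl5. This chemokine, stored by CD8 T cells and NK cells, had ratios of -0.15, -1.61, -2.38 and -1.07 in pairs 1, 2, 4 and 5, a mean of -1.30 ± 0.940 (SD, n = 4, unadjusted p 0.0207 and adjusted p 0.594 in limma). It was negative in every pair, as Gzma and Gzmb were, but near 0 in pair 1. Ccl25, the epithelial chemokine that attracts CCR9-bearing lymphocytes, had 0.71, -0.87, -1.23 and -2.51. The receptor gene Ahr, needed in mice to maintain intraepithelial lymphocytes, averaged 0.28 ± 0.352, and the collagen-binding integrin gene Itga1 -0.15 ± 0.114 (mean log2 ratio, SD, n = 4 each).

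Of 14 transcription factor genes, 13 were measured and 0 met the rule. Id2, an inhibitor of E proteins needed by NK cells, averaged 0.43 ± 0.487, Bcl11b -0.23 ± 0.530, Tcf7 -0.11 ± 0.111 and Tox -0.16 ± 0.339 (mean log2 ratio, SD, n = 4 each). Runx3, Tbx21 and Eomes, named for the promoter letters and after their values were seen, averaged -0.08, -0.04 and -0.02. Of 20 cytokine and cytokine receptor genes, 17 were measured and 0 met the rule. Il15, the cytokine that sustains NK cells and intraepithelial lymphocytes, had small negative ratios in every pair, -0.09, -0.19, -0.16 and -0.26 (adjusted p = 0.653 in limma). Il18, an epithelial cytokine that activates NK cells, averaged -0.48 ± 0.736, Il7 0.17 ± 0.314 and the common gamma chain gene Il2rg -0.14 ± 0.157 (mean log2 ratio, SD, n = 4 each). Ifng, the interferon gene of cytotoxic cells, was not well above background.

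Of 21 ligand genes of these receptors, 11 were measured, and 1 met the rule, upwards. Fas, the death receptor bound by the Fas ligand of cytotoxic cells, had ratios of 1.13, 0.28, 0.37 and 0.75 in pairs 1, 2, 4 and 5, a mean of 0.63 ± 0.388 (SD, n = 4, unadjusted p 0.0247 and adjusted p 0.594 in limma). Upwards, the rule was met by 0.762% of all genes. Pvr, which encodes a ligand of the receptors DNAM-1 and TIGIT, averaged 0.39 ± 0.280, Tnfrsf14 -0.10 ± 0.040 and the butyrophilin-like gene Btnl1 -0.15 ± 0.360 (mean log2 ratio, SD, n = 4 each). In 3 of the 11 genes a channel was saturated on all 4 arrays, and on at least 1 array both were, so no size or direction is read from their ratios.

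**Figure D4:**
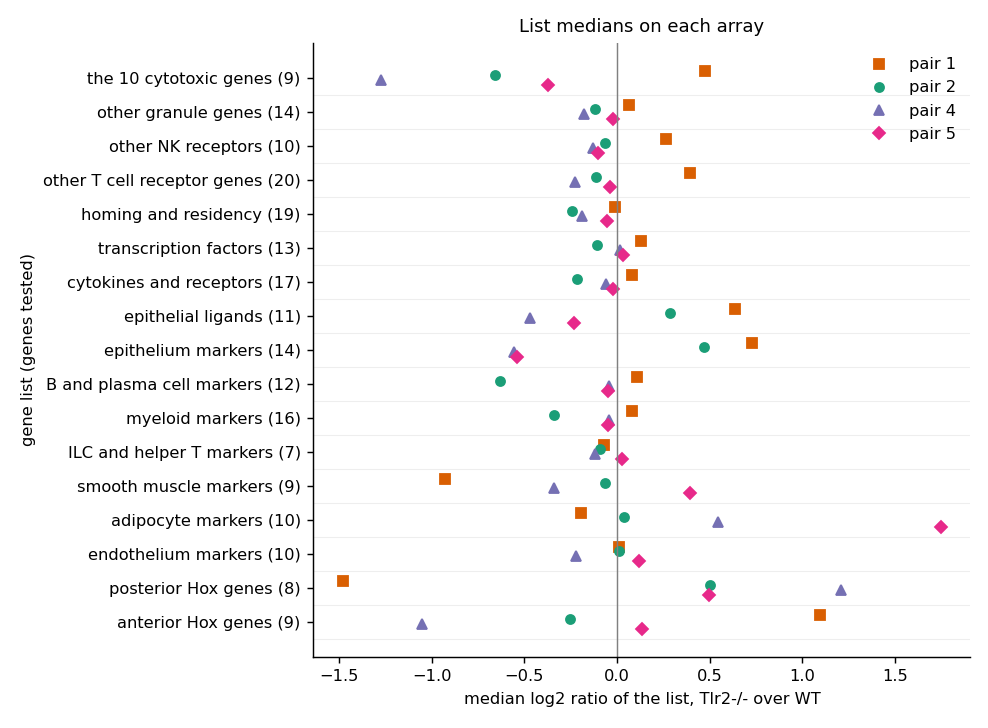
Median log2 ratio of Tlr2-/- over WT (x axis) on each of the 4 arrays for the 10 cytotoxic genes, 7 lists of related genes and 9 lists of markers of other cells or of position (rows, with the number of genes measured). Saturated spots enter the epithelium and ligand rows. The 9 measured cytotoxic genes run from 0.48 in pair 1 to -1.28 in pair 4, and the posterior Hox genes run the opposite way, from -1.48 to 1.21.

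Markers of other cells and of position along the colon also differed between the samples of a pair. The median log2 ratio of 8 posterior Hox genes was -1.48, 0.50, 1.21 and 0.50 in pairs 1, 2, 4 and 5, and that of 9 more anterior Hox genes 1.097, -0.26, -1.05 and 0.14. By its median, the posterior set was thus lower in the Tlr2-/- sample in pair 1 and higher in pairs 2, 4 and 5. Of the cytotoxic genes, 6 were higher in pair 1 after loess (3 with median centring) and lower in the other pairs. The summed linear level of the posterior set ran between 3650 and 27304 in Tlr2-/- samples and between 8297 and 23333 in WT samples. By this sum the set was higher in Tlr2-/- only in pair 4 (27304 against 11241). It was slightly lower in pair 2 (15226 against 16122) and pair 5 (7939 against 8297). Gzma and Gzmb were negative both in pair 1 and in the other pairs. The part of sampling position in the ratios of the cytotoxic genes, Gzma and Gzmb included, was not tested.

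The summed linear level of the 9 cytotoxic genes was 1440 to 2634 in Tlr2-/- samples and 2144 to 3342 in WT samples. For 12 B and plasma cell markers it was 11703 to 17450 in Tlr2-/- and 11117 to 14656 in WT, with pair medians of 0.11, -0.63, -0.04 and -0.05, and 5 of the 12 had the sign pattern of pair 1 against the rest. By pair, this B and plasma sum was lower in Tlr2-/- in pair 1 and higher in pairs 2, 4 and 5, unlike the medians. For 16 myeloid markers the summed level was 4267 to 5728 in Tlr2-/- and 5563 to 7548 in WT. It was lower in Tlr2-/- in every pair, at 5728 against 6097, 4783 against 7548, 5101 against 5563 and 4267 against 6632. The medians of the myeloid markers were 0.08, -0.34, -0.05 and -0.05. Of the 16, 7 had the sign pattern of pair 1 against the rest, which 16.1% of all genes had after loess. Endothelial markers had medians of 0.01, 0.01, -0.22 and 0.12 over 10 genes, and markers of innate lymphoid and helper T cells -0.07, -0.09, -0.12 and 0.03 over 7. Smooth muscle markers had medians of -0.93, -0.07, -0.34 and 0.40 over 9 genes, and adipocyte markers -0.20, 0.04, 0.54 and 1.75 over 10. The adipocyte median was thus highest in pair 5, where the ratios of Gzma and Gzmb were least negative. It was next highest in pair 4, where they were most negative. Each pair is 1 array, and whether adipocyte and granzyme ratios are linked was not tested. For 14 epithelial markers, which fit the labelled tissue, the summed level was 601473 to 910059 in Tlr2-/- and 530511 to 849044 in WT, and 9 of them had a saturated channel on all 4 arrays, and on at least 1 array 9 had both channels saturated, so no size or direction is read from these ratios. The part of cell makeup in the results was not tested.

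The genes nearest in pattern to Gzma, by the root mean square difference of log2 ratio over the 4 arrays among 14687 genes, were Tmem252 (0.472), Ccl5 (0.606), Cyp3a44 (0.674), Camk2b (0.709) and Cmah (0.724).  Those nearest to Gzmb were Cmah (0.281), Tmem252 (0.286), Sprr2k (0.287), Sardh (0.330) and Tph1 (0.356). Tmem252 and Cmah stood in both lists. The mean of Cd3d, Cd3e and Cd3g, which was 0.39, -0.45, -0.73 and -0.25 in pairs 1, 2, 4 and 5, lay nearer 0. Its nearest genes were Selplg (0.0373), which encodes the leukocyte selectin ligand PSGL-1, Srsf10 (0.0382), Heatr6 (0.0565), Mrpl13 (0.0599) and Sergef (0.0624). These distances describe 4 arrays and were not tested.

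**Figure D5:**
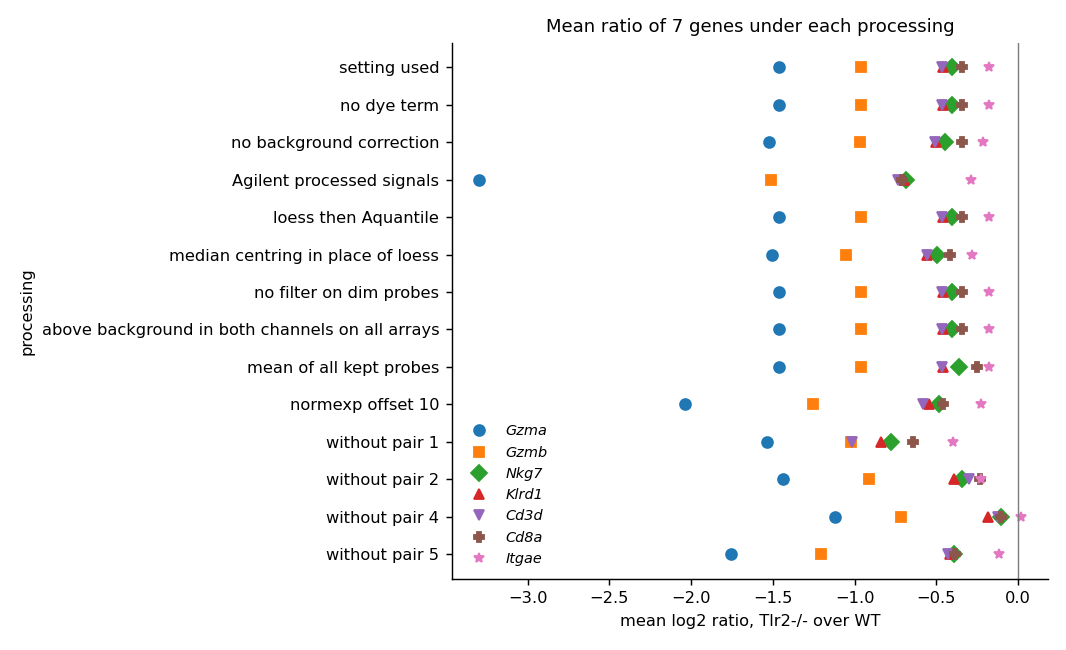
Mean log2 ratio of Tlr2-/- over WT (x axis) of 7 of the genes under each processing (rows). Gzma and Gzmb stay left of the other 5 genes except without pair 1, where Cd3d reaches the value of Gzmb, and Gzma lies at -3.30 with the scanner's processed signals.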

How the data were processed

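RNA of colonic mucosa of Tlr2-/- and WT C57BL/6 mice, 1 sample of each per array, was measured on 4 expression arrays, and 2 methylation arrays were not used here. Group, pair and dye came from the labels, and the 10 genes and all gene lists were chosen with earlier results of these data known. The deposited scanner files hold spot intensity per channel and a log10 ratio of Cy5 over Cy3, which the authors made with Agilent Feature Extraction. The file headers give its version as 10.5.1.1, whereas the submitters' processing notes name 8.5.1.1, and which applies is not known here. The log10 ratio was not used. The authors deposited tables of hits with an average linear ratio of Tlr2-/- over WT, per the file headers, and 12 columns of per-array values in them, which could not be tied to samples, were not used.

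Median spot signals were background corrected with limma's normexp (offset 50), which draws the ratios of dim probes towards 0, and normalised by loess within each array (R 4.3.3, limma 3.58.1). Control and outlier spots were left out and spots of 1 probe averaged. A probe was kept when well above background in the channel of 1 genotype on at least 2 arrays, which left 21316 of 25125 probes with a symbol, and each gene was represented by its brightest kept probe. Accessions were given symbols through a RefSeq gene table. Levels per channel were taken after Aquantile normalisation. Log2 ratios of Tlr2-/- over WT were tested with lmFit and eBayes with a dye term, adjusted by Benjamini-Hochberg over 14707 genes. The procedure was tested on simulated data. Every one of the 10 genes was described. From each list of related genes up to 4 with the smallest p were named, plus the 5 nearest in pattern to Gzma, Gzmb and the CD3 mean. Any further gene was picked with its values in view. Each pair was left out in turn, and dye term, background, normalisation, filter and probe choice were varied. The number of arrays limits the precision.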

Additional observations from a re-analysis of the deposited data

Results flagged for a closer look

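Of 36 groups of 4 values looked at, over the 12 kept probes of the cytotoxic genes in Tlr2-/- levels, WT levels and ratios, 1 held a sample far from its other three. The WT sample of pair 4 had a Gzma log2 intensity of 8.91, while the other WT samples lay between 8.002 and 8.12. By this criterion chance marks about 1 group in 20. Without pair 4 the mean log2 ratio of Gzma was -1.12, against -1.46 with it.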

How the results depend on the processing

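Over 13 alternatives, 116 of 117 recomputed mean ratios of the 9 genes kept their sign and 0 passed the adjusted threshold. The exception was Itgae, which was 0.0188 without pair 4 and ranged between -0.40 and 0.0188 when 1 pair was left out. Gzma ranged between -3.30 and -1.12 (adjusted p 0.166 to 1 in limma) and Gzmb between -1.51 and -0.72 (adjusted p 0.197 to 1). The number of genes limma called over the whole array was 0 with the settings used, 3 without a dye term, 4 with processed signals, and 1 each without background correction, with median centring, with a filter on both channels of all arrays and with an offset of 10, the last chosen after seeing the data. The count of the 9 genes negative on every array was 2 (1237 of all genes), but 5 with median centring (997 of all genes) and between 2 and 8 when 1 pair was left out (1782 to 3602 of all genes). By the submitters' rule it was 2 or 3 throughout, with Gzma and Gzmb in every setting. The rule was met downwards by 105 of all genes with the settings used. Over the alternatives this number ran from 84 without pair 5 to 496 without pair 1. No paired analysis was possible because the groups that share numbers, the methylation and the expression arrays, are not compared. Each expression ratio is already a difference within 1 pair. Prf1 and 6 granzyme genes are limited by signal at background.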
